A study of Mus musculus with 6 samples.

Results

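Transcription factors that specify stratified squamous epithelium were examined in bulk RNA sequencing libraries of mouse tongue. The 9 genes were Trp63, Sox2, Pitx1, Klf4, Klf5, Grhl1, Grhl3, Ovol1 and Tfap2a, taken by symbol from the 35275 genes of the deposited table, and each symbol matched 1 row. There were 3 libraries from Aim2 KO mice, deficient in the cytosolic DNA sensor Aim2 (the exons removed are not given), and 3 from wild type mice, numbered 1 to 3 within each genotype. All 6 came from tongues of mice that had received the carcinogen 4NQO (4-nitroquinoline 1-oxide) at 100 µg/ml in drinking water for 20 weeks, so no group was free of carcinogen. Strain, age and sex are not given in the labels, nor is it said that the 3 libraries of a genotype were 3 animals. After the genotype letters, the library names of a genotype share a number, which differs between the genotypes. What that number stands for is not given, so it cannot be told apart from genotype. The p-values therefore cover only the spread among these libraries, which may be technical. Values are FPKM (fragments per kilobase of gene length, scaled to library size), and recovered read totals ran from 21959204 to 25369400 per library.

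The tongue surface is a stratified squamous epithelium in which basal keratinocytes divide and their daughters move up, keratinise and are shed. p63, the product of Trp63, is the factor on which the basal layer depends, and Sox2 acts with it in progenitors of the tongue and in squamous carcinomas. Klf4, Grhl1, Grhl3 and Ovol1 act in the suprabasal layers, where keratinocytes leave the cell cycle and assemble the barrier, and 4NQO lesions arise from this epithelium. In bulk tissue, fewer cells of a type and less RNA per cell cannot be told apart.

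The upstream sequences of 3 of these genes are shown to place them in the genome. They are the 250 bases before the RefSeq start on GRCm38.p6, 5′ to 3′ on the gene's strand, for Sox2, whose genotype groups did not overlap, for Klf4, the most abundant of the factors, and for Grhl3, a barrier factor with another promoter composition. They lie at chr3:34649745-34649994 (plus strand), chr4:55532476-55532725 (minus strand) and chr4:135573633-135573882 (minus strand). The Sox2 gene as measured here starts at 34650405, so the Sox2 window does not adjoin it. Capitals mark matches on either strand to GGGCGG (GC box, bound by Sp and Klf proteins), to CACCC (a Klf element) and to GCCNNNGGC (AP-2), which can overlap one another.
Sox2: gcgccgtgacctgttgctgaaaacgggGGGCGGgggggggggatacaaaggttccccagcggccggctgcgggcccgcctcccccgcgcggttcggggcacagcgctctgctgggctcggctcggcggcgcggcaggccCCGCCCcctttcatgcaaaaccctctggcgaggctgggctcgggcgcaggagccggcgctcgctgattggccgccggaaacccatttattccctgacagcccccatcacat
Klf4: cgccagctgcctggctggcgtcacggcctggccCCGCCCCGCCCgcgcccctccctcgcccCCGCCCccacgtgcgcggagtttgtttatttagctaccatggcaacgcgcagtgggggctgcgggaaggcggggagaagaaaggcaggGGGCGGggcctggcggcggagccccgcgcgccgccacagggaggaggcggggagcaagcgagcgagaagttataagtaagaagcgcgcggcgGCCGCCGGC
Grhl3: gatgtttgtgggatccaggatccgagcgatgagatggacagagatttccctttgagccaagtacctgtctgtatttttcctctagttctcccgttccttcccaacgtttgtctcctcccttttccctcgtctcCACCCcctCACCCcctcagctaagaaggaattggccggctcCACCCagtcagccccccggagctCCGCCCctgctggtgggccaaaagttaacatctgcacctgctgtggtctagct
The Sox2 window held 2 GC boxes and 0 matches to the other motifs. The Klf4 window held 4 GC boxes and 1 AP-2 match, and the Grhl3 window held 3 CACCC matches and 1 GC box. These letters are common. GGGCGG occurred in 32.7% of the 32851 promoter windows of the same length, CACCC in 52.0% and GCCNNNGGC in 13.7%. The Sox2 and Klf4 windows contained 72% and 74% G and C and the Grhl3 window 56%, beside a median of 52.4% over all windows. RefSeq windows were at hand for 5 of the 9 genes (Sox2, Klf4, Grhl1, Grhl3 and Tfap2a), and a match is only a description of the letters.

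All 9 factors were well expressed in every library. Aim2 itself averaged 0.0879 ± 0.0630 FPKM in Aim2 KO, against 0.327 ± 0.112 in wild type (SD, n = 3 each). It was under the filter and was not tested, with 3, 4 and 10 recovered reads in Aim2 KO libraries 1 to 3, against 14, 25 and 30 in wild type libraries 1 to 3. The epithelial content of the tissue was plain in the keratins Krt13 and Krt5. Krt13 stood at 14631 to 15764 FPKM in Aim2 KO, against 14017 to 16390 FPKM in wild type. Krt5 stood at 1438 to 2342 FPKM in Aim2 KO, against 1611 to 1928 FPKM in wild type. Tongue muscle was abundant too. The mean log2(FPKM + 1) of 17 skeletal muscle genes was 7.75 in Aim2 KO replicate 1 and 8.53 to 8.81 in the other 5 libraries, and that of 18 structural genes of keratinocytes, called the epithelial level here, was highest in the same library (9.36) and lowest in wild type replicate 2 (8.89). Summed FPKM of these 18 genes ran from 30870 to 38566 in Aim2 KO and from 30766 to 37774 in wild type. The mean log2 level of all 14 leukocyte genes listed was 2.23 to 2.80 in Aim2 KO and 1.74 to 1.87 in wild type. By limma 0 of the 12 tested passed (smallest adjusted p = 0.504). The unadjusted limma p was under 0.05 for 10 of the 12, where it was for 2.5% of all genes tested. Groups did not overlap, with Aim2 KO higher, for 10 of the 12, where they did so for 4.98%. Both counts include Ptprc and Rac2, 2 of the 12 that had reached the filter only through Aim2 KO. Over the 10 that averaged 1 FPKM or more in both groups the level was 2.76 to 3.38 in Aim2 KO and 2.22 to 2.34 in wild type. The part of muscle, epithelial or leukocyte content in the values of the factors was not tested.

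By level per gene length, the factors ranked from Klf4 and Pitx1 through Klf5, Grhl3, Trp63, Ovol1 and Grhl1 to Sox2 and Tfap2a. The highest, Klf4, averaged 185 FPKM over the 6 libraries, above 97.1% of the 12144 genes tested (those averaging 1 FPKM or more), and the lowest, Tfap2a, averaged 25.01 FPKM, above 79.9% of them. Klf4 exceeded Pitx1 in 5 of 6 libraries, Grhl3 exceeded Trp63 in 4, Trp63 exceeded Ovol1 in 5 and Sox2 exceeded Tfap2a in 5, so these neighbours were not separated. Pitx1 exceeded Klf5, Klf5 exceeded Grhl3, Ovol1 exceeded Grhl1 and Grhl1 exceeded Sox2 in all 6. The order depends on the gene lengths of the table. Its length for Klf5 is 1721 bases, where the exons of all GENCODE M21 transcripts of Klf5 cover 5201 bases, 3.02 times as many, and for the other 8 genes this ratio was 1.00 to 1.599. The expression of the factors was read from 1190 to 16032 recovered reads per gene and library. Counting error alone would give a coefficient of variation of 0.862% to 2.71%, and the observed coefficient within genotypes was 5.55% to 21.7%, so the spread between libraries exceeded the counting error.

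The genotype comparison set Aim2 KO tongues against wild type tongues after the same carcinogen exposure. Of the 9 factors 0 passed the threshold by limma on log2(FPKM + 1) (Benjamini-Hochberg adjusted p = 0.9998 for each), and 0 had an unadjusted p under 0.05. Over all 12144 genes tested 1 gene passed (Wdfy1), which is 0.00823% of them, and 2.5% had an unadjusted p under 0.05. By limma's voom on the recovered reads 0 of the 9 factors passed as well. Fitted log2 differences, Aim2 KO minus wild type, were positive for 5 factors and negative for 4, with a median of 0.03 beside 0.02 over all genes tested. The 95% intervals of the fold between genotypes reached down to 0.753 (Sox2) and up to 1.52 (Ovol1). The groups did not overlap for 1 of the 9 factors, Sox2, where 6.46% of all genes tested had groups without overlap, 4.98% with Aim2 KO higher and 1.48% with Aim2 KO lower.

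**Figure D1:**
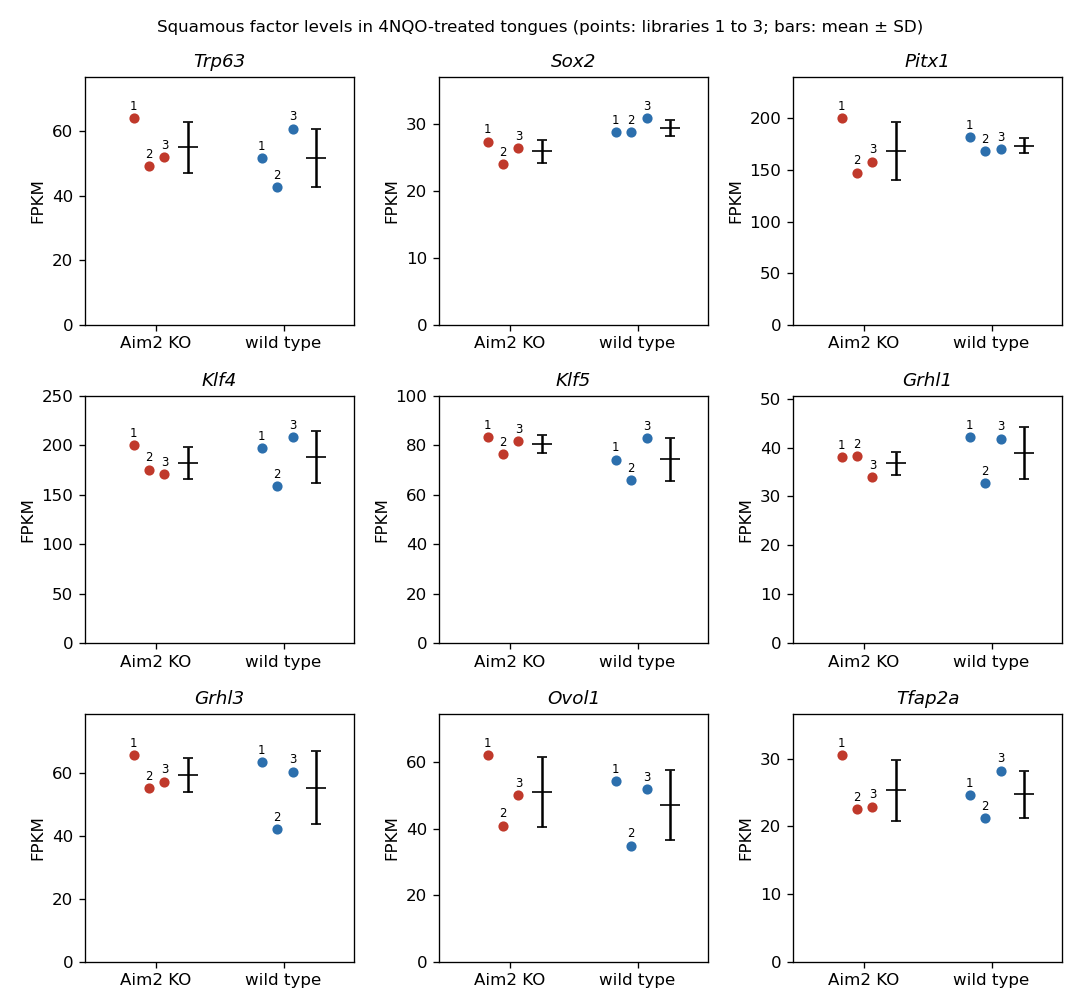
Level of each squamous factor in FPKM (y axis, from 0) in the 3 Aim2 KO libraries (red) and the 3 wild type libraries (blue), with library numbers above the points and the mean ± SD beside them. The groups overlap in every panel except that of Sox2, where the Aim2 KO libraries sit at 23.9 to 27.3 FPKM and the wild type libraries at 28.7 to 30.8 FPKM.

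Trp63 (ENSMUSG00000022510; chromosome 16, 25683763 to 25892102, plus strand) had 63.9, 49.1 and 52.0 FPKM in Aim2 KO libraries 1, 2 and 3, against 51.6, 42.7 and 60.8 FPKM in wild type libraries 1, 2 and 3. Aim2 KO replicate 1 was highest and wild type replicate 2 lowest, and the groups overlapped across most of their range. The means were 55.0 ± 7.86 FPKM in Aim2 KO, against 51.7 ± 9.03 in wild type (log2 difference 0.09, SE 0.16; 95% interval of the fold 0.823 to 1.38). Trp63 gives rise to full-length and amino-terminally truncated proteins from separate promoters. The table holds 1 value per gene, so these forms were not distinguished.

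Sox2 (ENSMUSG00000074637; chromosome 3, 34650405 to 34652461, plus strand), a progenitor factor that also maintains taste buds, had 27.3, 23.9 and 26.3 FPKM in Aim2 KO libraries 1 to 3, against 28.8, 28.7 and 30.8 FPKM in wild type libraries 1 to 3. Each Aim2 KO library was below each wild type library. The means were 25.9 ± 1.74 FPKM in Aim2 KO, against 29.4 ± 1.19 in wild type, a difference of -12.0% (log2 difference -0.18, SE 0.10, on the log2(FPKM + 1) scale). An exact permutation test gave p = 0.1, two-sided, the smallest possible with 3 libraries against 3. The order of the groups held under the other scalings and pseudocounts tried (log2 differences -0.21 to -0.18). Sox2 lies inside Sox2ot, a long RNA gene on the same strand in GENCODE M21. Sox2ot had 12, 18 and 12 recovered reads in Aim2 KO and 8, 10 and 7 in wild type, where Sox2 had 1190 to 1606 reads per library.

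Other cells of the tongue also use Sox2, namely taste cells and glial cells of nerves, and markers of both are given here beside it. Of 10 taste bud markers 4 were tested, and their summed level over all 10 was 51.7 to 80.8 FPKM in Aim2 KO, against 44.4 to 83.4 FPKM in wild type, most of it from Krt18 and Krt8, which simple and glandular epithelia also express. For 1 of the 10, Gnat3, the taste G protein alpha subunit gustducin, the groups did not overlap, with Aim2 KO lower, as for 2.69% of the 10076 genes with any reads that averaged under 1 FPKM. It is named because of these values, and had 1, 3 and 2 reads in Aim2 KO libraries 1 to 3, against 10, 9 and 9 reads in wild type libraries 1 to 3, while Trpm5, a channel of the same cells, had 4, 4 and 4 reads in Aim2 KO and 7, 2 and 9 reads in wild type. The taste receptor Tas1r3 had 0.466 to 0.569 FPKM in Aim2 KO, against 0.550 to 0.794 FPKM in wild type, and its groups overlapped. The ion channel Pkd2l1 had 0 reads in all 3 Aim2 KO libraries and in 1 of 3 wild type libraries. Entpd2, 1 of the 4 tested, averaged 2.22 FPKM in Aim2 KO, against 2.35 FPKM in wild type, and its groups overlapped. Others went the other way or were level. Plcb2, a phospholipase of the same cells, had 15, 34 and 24 reads in Aim2 KO and 24, 12 and 28 reads in wild type, Kcnq1 had 21, 47 and 41 reads in Aim2 KO and 35, 35 and 19 reads in wild type, and Car4 averaged 3.35 FPKM in Aim2 KO, against 3.30 FPKM in wild type. Of the 8 Schwann cell markers 7 were tested, 3 with positive and 4 with negative differences, and their mean log2 level was 1.83 to 3.32 in Aim2 KO and 2.60 to 3.14 in wild type, with Aim2 KO replicate 1 at 1.83. For 1 of the 8, Egr2, a myelination factor, the groups did not overlap, with Aim2 KO higher (0.369 to 0.540 FPKM in Aim2 KO, 0.0931 to 0.343 FPKM in wild type), as for 4.55% of the genes under the filter. The part of these cells in the Sox2 values was not tested.

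Pitx1 (ENSMUSG00000021506; chromosome 13, 55825051 to 55836192, minus strand), a homeodomain factor of the oral epithelium and first branchial arch and of hindlimb identity, had 199.99, 147 and 158 FPKM in Aim2 KO libraries 1 to 3, against 182, 168 and 170.3 FPKM in wild type libraries 1 to 3. Aim2 KO libraries held both the highest and the lowest value, and the wild type libraries lay between them. The means were 168 ± 27.8 FPKM in Aim2 KO, against 173 ± 7.12 in wild type (log2 difference -0.05, SE 0.14; interval of the fold 0.764 to 1.21). Tfap2a (ENSMUSG00000021359; chromosome 13, 40715675 to 40733823, minus strand), which encodes AP-2 alpha, a factor of epidermal and craniofacial genes, had 30.5, 22.6 and 22.9 FPKM in Aim2 KO libraries 1 to 3, against 24.7, 21.2 and 28.2 FPKM in wild type libraries 1 to 3. Its order of libraries was close to that of Trp63, with Aim2 KO replicate 1 and wild type replicate 3 highest. The means were 25.3 ± 4.49 FPKM in Aim2 KO, against 24.7 ± 3.50 in wild type (log2 difference 0.03, SE 0.16).

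The Krüppel-like factors have opposite places in the epithelium, Klf5 in dividing basal cells and Klf4 in the differentiating layers above. Klf4 (ENSMUSG00000003032; chromosome 4, 55527143 to 55532466, minus strand) had 200.4, 175 and 171 FPKM in Aim2 KO libraries 1 to 3, against 197, 158 and 209 FPKM in wild type libraries 1 to 3. The means were 182 ± 15.9 FPKM in Aim2 KO, against 188 ± 26.3 in wild type, and the range of the wild type libraries enclosed all 3 Aim2 KO libraries. Klf5 (ENSMUSG00000005148; chromosome 14, 99298691 to 99313405, plus strand) had 83.3, 76.5 and 81.5 FPKM in Aim2 KO libraries 1 to 3, against 74.2, 65.8 and 82.9 FPKM in wild type libraries 1 to 3. All 3 Aim2 KO libraries lay above wild type replicates 1 and 2, and wild type replicate 3 was next to the top. The Klf5 means were 80.4 ± 3.56 FPKM in Aim2 KO, against 74.3 ± 8.58 in wild type (log2 difference 0.12, SE 0.12; interval of the fold 0.896 to 1.32).

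Grainyhead-like factors control genes of cell junctions and of the barrier. Grhl1 (ENSMUSG00000020656; chromosome 12, 24572287 to 24617391, plus strand), an activator of desmosomal cadherin genes, had 38.0, 38.3 and 33.9 FPKM in Aim2 KO libraries 1 to 3, against 42.2, 32.7 and 41.8 FPKM in wild type libraries 1 to 3. Grhl3 (ENSMUSG00000037188; chromosome 4, 135541888 to 135573630, minus strand), needed for barrier formation and wound closure, had 65.6, 55.2 and 57.2 FPKM in Aim2 KO libraries 1 to 3, against 63.4, 42.0 and 60.4 FPKM in wild type libraries 1 to 3. For both genes wild type replicate 2 was the lowest library and the groups overlapped. The means of Grhl1 were 36.7 ± 2.44 FPKM in Aim2 KO, against 38.9 ± 5.34 in wild type, and those of Grhl3 were 59.3 ± 5.52 FPKM in Aim2 KO, against 55.3 ± 11.6 in wild type (log2 differences -0.07, SE 0.13, and 0.12, SE 0.17). Ovol1 (ENSMUSG00000024922; chromosome 19, 5549137 to 5560575, minus strand), a zinc finger repressor that restrains keratinocyte proliferation, had 62.2, 41.0 and 50.1 FPKM in Aim2 KO libraries 1 to 3, against 54.4, 34.9 and 51.9 FPKM in wild type libraries 1 to 3. It spanned the widest range of the 9, with its highest library at 1.78 times its lowest, and had the widest interval of the fold (0.776 to 1.52).

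**Figure D2:**
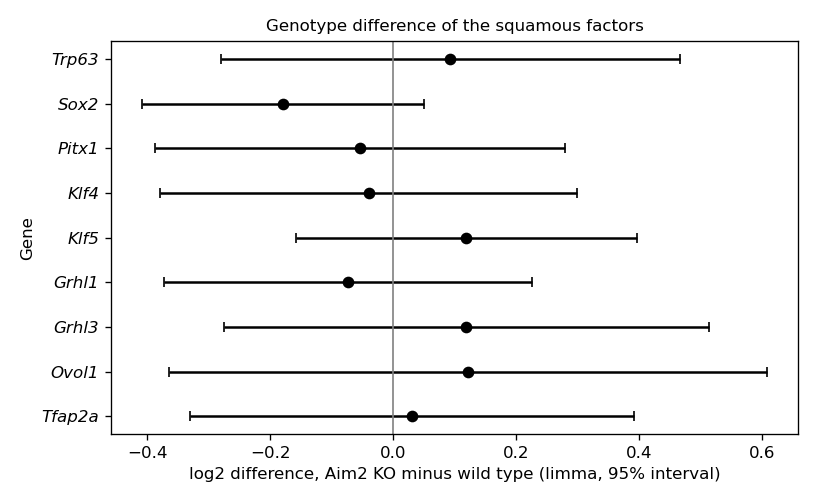
Log2 difference of each squamous factor (x axis, Aim2 KO minus wild type) with its 95% interval from limma over 3 libraries per group. All 9 intervals include 0, and that of Sox2 runs from -0.41 to 0.05.

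The signs of most of these differences rested on single libraries. Trp63, Ovol1 and Tfap2a turned negative without Aim2 KO replicate 1 (log2 differences -0.02, -0.03 and -0.11) and also without wild type replicate 2 (-0.03, -0.08 and -0.07), and Grhl3 turned negative without wild type replicate 2 (-0.06). The Klf4 log2 difference turned positive without Aim2 KO replicate 3 (0.00399) or wild type replicate 3 (0.04), and Pitx1 without Aim2 KO replicate 2 (0.04). Sox2 stayed negative in all 6 fits that left out 1 library (-0.22 to -0.13), Grhl1 stayed negative (-0.19 to -0.01) and Klf5 positive (0.04 to 0.20).

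Most of the factors shared the libraries in which they were highest and lowest. Aim2 KO replicate 1 was the highest library for 6 of the 9 (Trp63, Pitx1, Klf5, Grhl3, Ovol1 and Tfap2a), and wild type replicate 2 was the lowest for 7, all but Sox2 and Pitx1, whose lowest library was Aim2 KO replicate 2. The mean log2 level of the 9 factors was 6.09, 5.81 and 5.87 in Aim2 KO libraries 1 to 3, against 5.99, 5.70 and 6.05 in wild type libraries 1 to 3. Its group means differed by 0.01 (exact permutation test, two-sided, p = 1), and by -0.07 without Aim2 KO replicate 1 and -0.09 without wild type replicate 2. The epithelial level followed the same order at both ends, at 9.36, 8.95 and 9.04 in Aim2 KO and 9.17, 8.89 and 9.20 in wild type. When it was subtracted from each factor, the range across the 6 libraries narrowed for 7 of the 9. Among all genes tested, which include genes of muscle and leukocytes, it narrowed for 18.8%. A share for keratinocyte genes alone was not taken. Tfap2a then spanned 0.16 instead of 0.50 on the log2 scale, Trp63 0.20 instead of 0.57 and Ovol1 0.36 instead of 0.81. For Sox2 the range widened to 0.54, against 0.35 before, and for Grhl1 to 0.42, against 0.36.

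**Figure D3:**
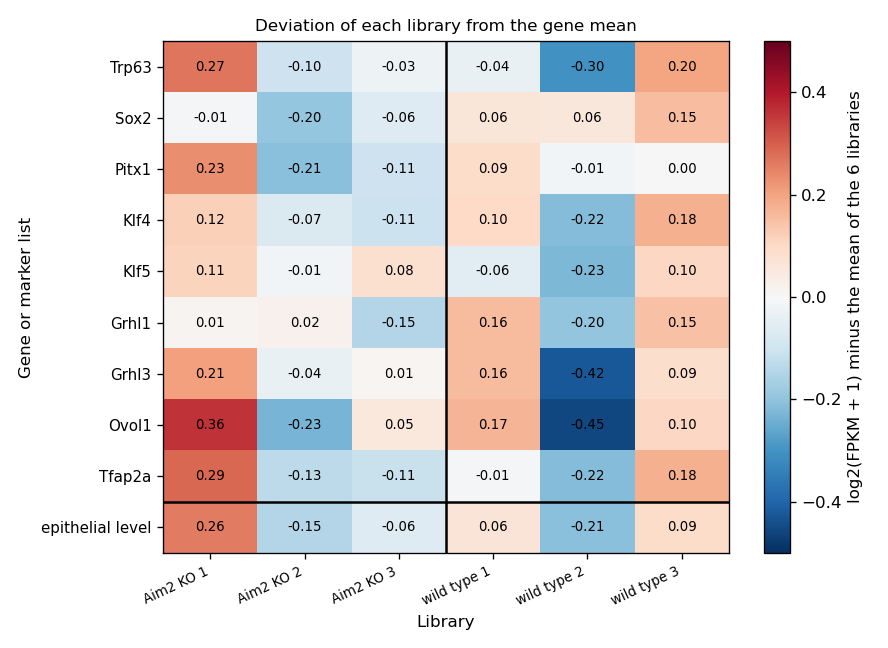
Deviation of each library (columns, Aim2 KO left of the line, wild type right of it) from the gene's mean over the 6 libraries on the log2(FPKM + 1) scale, for each squamous factor and, in the bottom row, for the epithelial level of 18 keratinocyte genes. Ovol1 and Grhl3 reach -0.45 and -0.42 in wild type replicate 2, where Sox2 stands at 0.06.

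With the epithelial level subtracted, 0 of the 9 factors had groups without overlap, where 2.31% of the genes tested did, 0.758% with Aim2 KO lower. Sox2 minus the epithelial level was -4.54, -4.31 and -4.27 in Aim2 KO libraries 1 to 3, against -4.27, -4.00 and -4.21 in wild type libraries 1 to 3. Wild type replicate 1 then lay just below Aim2 KO replicate 3, and the group means differed by -0.21 (exact permutation test, two-sided, p = 0.2). After quantile normalization, without Aim2 KO replicate 3 or without wild type replicate 1 the groups did not overlap. Trp63 minus the epithelial level was -3.34, -3.31 and -3.31 in Aim2 KO, against -3.45, -3.44 and -3.25 in wild type. The Aim2 KO libraries lay close together, between wild type replicate 3 and the other two.

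Ratios between factors do not depend on the library total. Of the 36 ratios 2 had groups without overlap (5.56%), where 6.99% of the ratios of all pairs of tested genes did, so the count was near the background. Sox2/Klf5 was 0.328, 0.313 and 0.323 in Aim2 KO libraries 1 to 3, against 0.388, 0.436 and 0.371 in wild type libraries 1 to 3. The Aim2 KO values were close together and all below the lowest wild type value (means 0.321 ± 0.00755 in Aim2 KO and 0.398 ± 0.0338 in wild type). Klf4/Klf5 was 2.40, 2.29 and 2.10 in Aim2 KO, against 2.66, 2.41 and 2.52 in wild type. Here Aim2 KO replicate 1 and wild type replicate 2 nearly touched (2.404 and 2.410), and after quantile normalization the groups overlapped. Each had p = 0.1 by the exact permutation test, two-sided, and an adjusted p of 0.655 over the 36 ratios. Trp63/Sox2 was 2.34, 2.05 and 1.97 in Aim2 KO, against 1.79, 1.49 and 1.98 in wild type, and wild type replicate 3 lay between Aim2 KO replicates 2 and 3 (exact permutation test, p = 0.2).

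**Figure D4:**
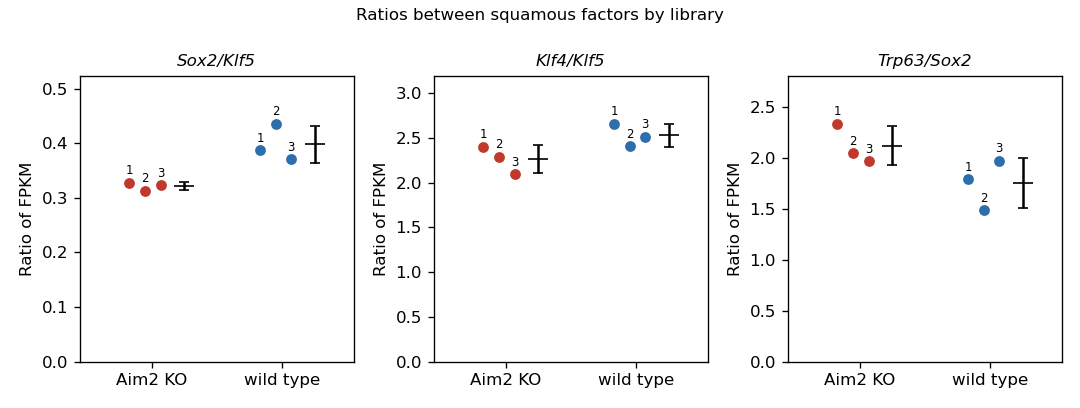
Ratios of FPKM between factors (y axes, from 0) in the 3 Aim2 KO libraries (red) and the 3 wild type libraries (blue), numbered, with mean ± SD. Sox2/Klf5 lies at 0.313 to 0.328 in Aim2 KO and at 0.371 to 0.436 in wild type, and in the panel of Trp63/Sox2 the groups overlap.

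Genes with the profile most like each factor were found by the root mean square difference of centred log2(FPKM + 1) values over the 6 libraries. Tfap2a and Trp63 were each other's nearest factor (0.053, beside a median of 0.24 over all genes for each), and so were Klf4 and Grhl1 (0.067), Ovol1 and Grhl3 (0.10) and Sox2 and Pitx1 (0.12). Among other genes the nearest to Ovol1 were Mpzl2 (0.055), an epithelial adhesion protein, and Sfn (0.061), the keratinocyte 14-3-3 protein stratifin. The nearest to Grhl3 were Rnf19b (0.054), a ubiquitin ligase, and Dsc1 (0.060), a desmosomal cadherin of upper layers. The nearest to Trp63 were Actr2 (0.027), an actin nucleation subunit, and Bzw1 (0.034), and to Tfap2a Serinc2 (0.019) and Pfkp (0.024), a phosphofructokinase. For Klf4 they were Twf1 (0.028) and Cdyl (0.030), for Klf5 Mob1a (0.012) and Fgd6 (0.021), and for Grhl1 Bnip3l (0.037) and Enox1 (0.038). For Sox2 they were Znhit6 (0.038) and Aen (0.041), and for Pitx1 Nrarp (0.031). A small distance over 6 libraries describes these libraries and is shared by many genes. For Klf5 its nearest factor, Trp63, had rank 1414 among the genes compared. Pitx1 had rank 1072 for Sox2 (median distance of all genes 0.195), and Sox2 had rank 1303 for Pitx1 (median 0.218).

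Relatives of the factors differed widely in level. Of 35 family genes 27 were tested, 17 with positive and 10 with negative log2 differences (median 0.03), and 0 passed. For Tfcp2l1 the groups did not overlap with Aim2 KO higher, and for Pitx3 with Aim2 KO lower, so 2 of the 27 lacked overlap where 6.46% of all genes tested did. Those with the smallest p were Ovol2, at 1.89 ± 0.356 FPKM in Aim2 KO, against 1.33 ± 0.256 in wild type, Pitx3, at 1.601 ± 0.119 against 2.12 ± 0.284 FPKM, Klf7, at 1.77 ± 0.353 against 1.28 ± 0.354 FPKM, and Klf2, an endothelial and lymphocyte factor, at 13.2 ± 5.42 against 17.9 ± 5.24 FPKM. Some relatives were chosen for kinship after their values were seen. Grhl2, the third grainyhead-like gene, had 9.26 ± 1.09 FPKM in Aim2 KO, against 9.11 ± 0.869 in wild type, below Grhl1 and Grhl3. Tfap2c, which encodes AP-2 gamma, had 18.4 ± 5.28 FPKM in Aim2 KO, against 19.5 ± 0.531 in wild type, while Tfap2b stood at 0.0369 FPKM in Aim2 KO, against 0.0395 FPKM in wild type and Tfap2d was listed at 0 in all 6 libraries. Sox15 was about as high as Sox2, at 28.8 ± 5.47 FPKM in Aim2 KO, against 26.8 ± 1.01 in wild type. The p53 gene Trp53 had 16.5 ± 2.57 FPKM in Aim2 KO, against 17.0 ± 1.09 in wild type, and Trp73 had 1.47 ± 0.481 FPKM in Aim2 KO, against 1.42 ± 0.365 in wild type.

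Other squamous factors and cofactors were counted in the same way. Of 27 partner factors 26 were tested, 13 with positive and 13 with negative differences (median -0.01), and 0 passed. Barx2, an oral homeodomain factor, was the 1 of the 26 whose groups did not overlap, with Aim2 KO higher, as for 4.98% of all genes tested. Hopx, a homeodomain cofactor of differentiation, had 80.3 ± 9.38 FPKM in Aim2 KO, against 96.8 ± 7.64 in wild type, and Cebpb, a differentiation factor, had 77.3 ± 10.6 FPKM in Aim2 KO, against 87.8 ± 3.70 in wild type. Id2, an inhibitor of helix-loop-helix factors, had 24.7 ± 4.62 FPKM in Aim2 KO, against 20.01 ± 2.07 in wild type, and Bnc1, a basal keratinocyte zinc finger protein, had 3.64 ± 1.17 FPKM in Aim2 KO, against 2.55 ± 0.689 in wild type. All 10 cofactors, inhibitors and ubiquitin ligases of the factors were tested, with 6 positive and 4 negative differences (median 0.01) and 0 past the threshold. The smallest p were those of the coactivator Ep300, at 8.22 ± 0.962 FPKM in Aim2 KO, against 7.37 ± 1.15 in wild type, and of Itch, a ligase that degrades p63, at 12.8 ± 0.950 FPKM in Aim2 KO, against 11.8 ± 0.974 in wild type.

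Genes listed as basal genes under p63 did not pass either. Whether the factors regulate the genes of this list and of the next lists was not tested. Of 22 list entries 21 were tested, with 14 positive and 7 negative differences (median 0.04). Fgfr2, a fibroblast growth factor receptor, had 30.01, 24.7 and 24.9 FPKM in Aim2 KO libraries 1 to 3, against 24.2, 22.5 and 24.1 FPKM in wild type libraries 1 to 3. It was the 1 of the 21 whose groups did not overlap, where 4.98% of all genes tested did so with Aim2 KO higher. Lamb3, a laminin subunit gene, had 28.6 ± 4.02 FPKM in Aim2 KO, against 33.9 ± 9.45 in wild type. Of 15 junction and splicing genes listed under Grhl and Ovol factors all 15 were tested, with 11 positive and 4 negative differences (median 0.06). Among them Prss8, a membrane protease, had 19.96 ± 3.05 FPKM in Aim2 KO, against 22.5 ± 2.03 in wild type, Lsr, a tricellular junction protein, had 7.43 ± 2.22 FPKM in Aim2 KO, against 6.09 ± 0.490 in wild type, and Epcam had 35.5 ± 8.58 FPKM in Aim2 KO, against 30.3 ± 5.11 in wild type. Of 9 mesenchymal genes listed as opposed by these factors 6 were tested (5 positive, 1 negative, median 0.05). The smallest p was that of Snai2, at 15.1 ± 3.18 FPKM in Aim2 KO, against 12.9 ± 2.48 in wild type. In these lists and those of the relatives, partners and cofactors 0 genes passed by limma, 0 had an unadjusted p under 0.05, and 0 passed by voom on the recovered reads.

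Barrier genes, listed as downstream of Klf4, Grhl1, Grhl3 and Ovol1, mostly had negative differences. Regulation of the listed genes by these factors was not tested. Of 35 list entries 32 were tested, 26 with negative and 6 with positive differences (median -0.19, beside 0.02 over all genes), and 0 passed by limma or voom. The unadjusted limma p was under 0.05 for 3 of the 32, where it was for 2.5% of all genes tested. Skeletal muscle genes had 16 negative and 1 positive difference of 17 tested (median -0.24). Their mean log2 level was 7.75, 8.81 and 8.71 in Aim2 KO libraries 1 to 3, against 8.53, 8.79 and 8.65 in wild type libraries 1 to 3. Only Aim2 KO replicate 1 lay below the wild type libraries (exact permutation test, two-sided, p = 0.9). Leukocyte genes had 12 positive differences of 12 tested (median 0.73). Of these 12 leukocyte genes 2, Ptprc and Rac2, had reached the filter only through Aim2 KO, which favours a positive sign. Over the 10 that averaged 1 FPKM or more in both groups the mean log2 level was 2.76 to 3.38 in Aim2 KO and 2.22 to 2.34 in wild type. The part of muscle and leukocytes in the barrier values was not tested. Groups without overlap were found for 4 of the 32 barrier genes, each with Aim2 KO lower (Krt10, Klk5, Lor and Lce3c), where 1.48% of all genes did so. Krt10, a keratin of cornifying layers, had 272, 166 and 197 FPKM in Aim2 KO libraries 1 to 3, against 310.5, 319.8 and 306 FPKM in wild type libraries 1 to 3 (log2 difference -0.59, SE 0.19). Lor, the envelope protein loricrin, had 1967 ± 144 FPKM in Aim2 KO, against 2706 ± 159 in wild type. The protease genes Klk5 and Klk7 had 4.37 ± 1.053 FPKM and 32.4 ± 10.5 FPKM in Aim2 KO, against 5.87 ± 0.289 FPKM and 43.9 ± 6.44 FPKM in wild type. The oral keratin Krt13 and the transglutaminase Tgm3 were nearly level, at 15243 ± 572 FPKM and 649 ± 94.96 FPKM in Aim2 KO, against 15573 ± 1348 FPKM and 645.5 ± 76.3 FPKM in wild type. Without Aim2 KO replicate 1, where the keratin gene Krt1 stood at 348 FPKM beside 89.95 and 64.2 FPKM in the other Aim2 KO libraries, Krt1 passed (log2 difference -1.56, limma adjusted p = 0.0256). The mean log2 level of the 32 genes was 7.73, 7.398 and 7.21 in Aim2 KO libraries 1 to 3, against 7.85, 7.46 and 7.71 in wild type libraries 1 to 3. Aim2 KO replicate 1 lay above wild type replicates 2 and 3, and Aim2 KO replicates 2 and 3 lay below all 3 wild type libraries (exact permutation test, two-sided, p = 0.3). Many of these genes lie together on chromosome 3 in the epidermal differentiation complex, and close paralogs among the Lce3 and Sprr genes can share reads.

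**Figure D5:**
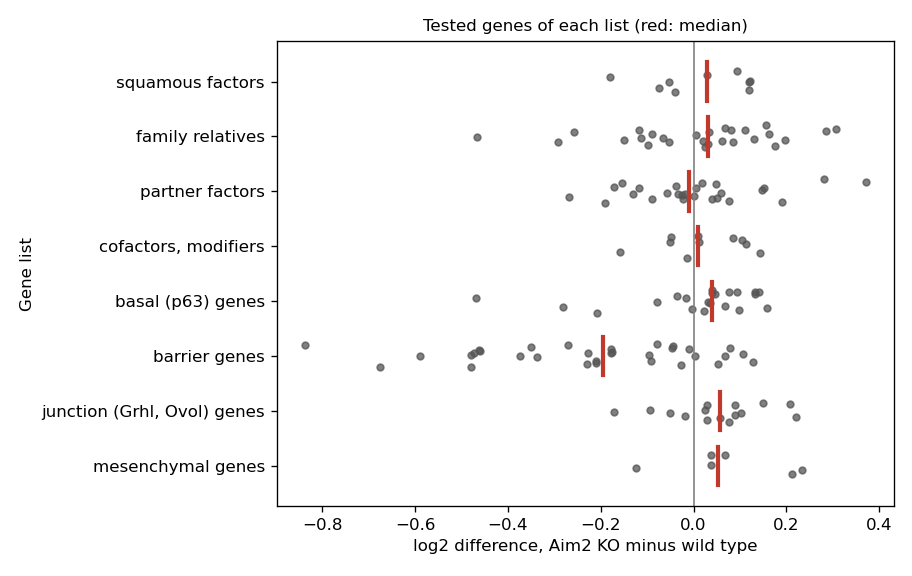
Log2 difference (x axis, Aim2 KO minus wild type) of each tested gene in the squamous factor list and in 7 lists of related genes (rows), with the list's median in red. The 9 factors lie between -0.18 and 0.12, and the barrier genes have a median of -0.19.

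Genes on the other strand or within the factors add a limit. In GENCODE M21, antisense genes overlap Pitx1, Ovol1 and Tfap2a, and whether the reads were counted by strand is not given in the sources used here. The antisense gene at Tfap2a that the table lists, Gm26688, had 5 to 12 reads per library where Tfap2a had 1553 to 2212. Gm28760, on the strand of Pitx1, had 6 to 27 reads where Pitx1 had 8509 to 11048. The coordinates given are those of the table, read as GRCm38, and for 5 of the 9 genes they are identical to GENCODE M21.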

How the data were processed

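Whole tongue RNA was purified by column kit and library construction was outsourced, per the labels' protocols. The authors deposited FPKM values with a gene length and position for each gene. The aligner, counter, genome build, annotation and strand setting were not given in the sources used here. Multiplied by gene length and scaled by a library total inferred from the steps of the values, all values above 0 (100%) came to whole numbers of reads (tolerance 0.01), called recovered reads.

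The genotype fit used limma 3.58.1 under R 4.3.3 on log2(FPKM + 1) with its mean-variance trend. It covered 12144 genes (mean FPKM 1 or more), two-sided, with Benjamini-Hochberg adjustment across these and a threshold of 0.05. A fold on this scale understates the change of low genes. Ratios and list levels were tested by exact permutation over the libraries. Limma's voom on the recovered reads called 1 gene. The factors and lists were chosen with earlier results of these data known. Alternatives were other pseudocounts, filters, scalings, limma settings, covariates, the replicate number as a block, and leaving out each library. All factors are named, and of each other list up to 4 genes with the smallest p. Krt5, Krt13, Krt1, Lce3c, Tgm3, Gnat3, Trpm5, Tas1r3, Pkd2l1, Plcb2, Kcnq1, Car4, Entpd2 and Egr2 were named outside this rule. So were Ptprc, Rac2, Tfcp2l1, Barx2 and the relatives said to be chosen for kinship. A few genes that the rule names are not reported here. Intervals from limma cover the spread between libraries. Of the list entries, 2 synonyms (Bpag1 and Loricrin) matched no row, and their genes are present as Dst and Lor. RefSeq promoter windows are on GRCm38.p6.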

Additional observations from a re-analysis of the deposited data

How the results depend on the processing

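The 9 factors gave 0 calls under all 14 alternative settings and in all 6 fits without 1 library, and their smallest adjusted p was 0.404 (Sox2, array quality weights). The median log2 difference of the factors ran from -0.07 to 0.04 over the 14 settings and from -0.10 to 0.13 when 1 library was left out. The number of genes past the threshold among all tested was 1, but 14 without a filter (each with a mean under 1 FPKM), 0 with a filter at 0.1 FPKM, 0 after TPM rescaling, 0 with the replicate block, 3 with the epithelial level as a covariate, 13 with the skeletal muscle level as a covariate, 68 with array quality weights, and 0 to 14 without 1 library, where the 14 came without Aim2 KO replicate 1. Of the barrier genes 1, Krt10, passed with array quality weights (limma adjusted p = 0.0473). In the fits without 1 library 0 to 1 barrier genes passed, and the 1 was Krt1, without Aim2 KO replicate 1. Signs near 0 turned. The Tfap2a log2 difference was -0.00065 after median-of-ratios scaling, -0.072 with array quality weights, -0.067 with the skeletal muscle covariate and -0.0070 with the epithelial covariate. The Ovol1 log2 difference was -0.0062 with the skeletal muscle covariate, and the Klf4 log2 difference was 0.025 after quantile normalization. The mean level of the factors differed by -0.016 after median-of-ratios scaling. The causes were not tested. Without 1 library the log2 differences ran from -0.035 to 0.21 for Trp63, -0.18 to 0.036 for Pitx1, -0.16 to 0.039 for Klf4, -0.064 to 0.23 for Grhl3, -0.075 to 0.27 for Ovol1 and -0.11 to 0.13 for Tfap2a. The mean level differed by -0.092 to 0.083, and by -0.044 to 0.018 relative to the epithelial level.

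The labels do not say that libraries with the same replicate number are paired. Deviations of same-numbered libraries from their group means correlated at 0.351, 0.458 and 0.0302 across genes for numbers 1, 2 and 3. Between differently numbered libraries the correlation ran from -0.465 (Aim2 KO replicate 1, wild type replicate 2) to 0.213 (Aim2 KO replicate 3, wild type replicate 2). Whether the libraries were paired was not tested. The nearest-profile genes, recomputed under 5 other scalings and pseudocounts chosen after seeing the data, were among the 10 nearest in 79 of 90 cases.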
